A study of Mus musculus with 8 samples.

Results

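Chemokines and their receptors were examined in mouse skeletal myogenic cells as 53 genes, of 24980 in the deposited table, whose symbols begin with Cxcl, Ccl, Cx3c, Ccr, Cxcr or Ackr followed by a family number. Of these, 33 encode ligands and 20 encode receptors, including the atypical receptors. A filter on low counts left 42 of the 53 for testing (29 ligands and 13 receptors), of 17582 genes tested in all. The rule used their names and not their values, and it left out 1 receptor gene that matched. Family genes with other symbols, such as Xcr1, Pf4, Ppbp and Ccl27a, were not among the members either.

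RNA was sequenced from 8 libraries, 2 biological replicates in each of 4 groups. The teratoma-derived cells came from E14-EGFP embryonic stem cells, a single mouse line, implanted into irradiated and cardiotoxin-injured tibialis anterior muscles of NSG-mdx4Cv mice. These mice are immunocompromised and lack dystrophin in muscle. TF cells were the EGFP+ progenitors that carried α7-integrin and VCAM-1 and lacked CD31 and CD45, sorted fresh from those teratomas, and TE cells were such progenitors after culture to passage 8. SF cells were adult satellite cells, the stem cells of muscle, taken fresh, and SE cells were satellite cells cultured to passage 8. The age, strain and muscles of the satellite cell donors are not given in the sources used here.

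Chemokines are small secreted proteins that attract cells along a gradient, and they act through receptors that span the membrane and signal through G proteins. The atypical receptors bind chemokines without this signaling and remove or store them. In injured muscle, chemokines are known for recruiting neutrophils and monocytes, and many of their genes are switched on by NF-kappaB, a transcription factor of inflammation, or by interferon.

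Values are given as normalized counts, which are the estimated counts scaled for library size by the trimmed mean of M values, and a library's limit of 3 counts came to between 2.31 and 4.13 normalized counts. The libraries held between 11930961 and 21146632 counts in all. The 6 myogenic markers (Pax7, Myf5, Myod1, Itga7, Vcam1 and Des) had counts in all 8 libraries. Markers of other cells were present as well. The 6 pericyte and smooth muscle markers summed to 17998 and 17773 in TF and 25966 and 25689 in TE. They summed to 16539 and 15345 in SF and 7252 and 25929.5 in SE. Acta2 made up most of the expanded sums, at 24883 and 24652 in TE and 5614 and 23809 in SE. Of the 6, 5 were called lower and 1 higher in TE versus TF, where 16.2% and 9.86% of all genes were. In SE versus SF 4 were lower and 1 higher, where 19.8% and 20.9% of all genes were. Macrophage, endothelial and fibro-adipogenic sums were higher in fresh libraries. The summed level of 13 macrophage markers was 10679 in TF replicate 1 and 1116 in TF replicate 2, 977 and 806 in SF, 52.3 and 74.6 in TE, and 86.1 and 183 in SE. In all 4 expanded libraries 7 of the 13 (Ptprc, Adgre1, C1qa, C1qb, C1qc, Tyrobp and Aif1) were at 0. In bulk RNA, fewer cells of a type and less RNA per cell cannot be told apart.

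Promoter sequences are shown for Cxcl1, Cxcl2, Cxcl3 and Cxcl10, far lower in expanded cells, and for Cxcl12, called lower in TE versus TF only. Each is the 220 bases before the gene's start in RefSeq on GRCm38.p6, read 5′ to 3′ on the gene's strand, with matches to the NF-kappaB consensus in capitals.
Cxcl1 (chr5:90891025-90891244, plus strand): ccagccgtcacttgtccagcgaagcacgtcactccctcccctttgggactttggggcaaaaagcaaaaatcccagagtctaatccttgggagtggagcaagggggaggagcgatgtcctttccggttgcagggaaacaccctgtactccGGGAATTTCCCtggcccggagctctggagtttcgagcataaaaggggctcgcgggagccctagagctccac
Cxcl2 (chr5:90903679-90903898, plus strand): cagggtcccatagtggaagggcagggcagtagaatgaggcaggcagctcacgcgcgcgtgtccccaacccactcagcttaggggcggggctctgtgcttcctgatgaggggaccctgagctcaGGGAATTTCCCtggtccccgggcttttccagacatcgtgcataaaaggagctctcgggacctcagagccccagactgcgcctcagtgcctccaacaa
Cxcl3 (chr5:90785881-90786100, plus strand): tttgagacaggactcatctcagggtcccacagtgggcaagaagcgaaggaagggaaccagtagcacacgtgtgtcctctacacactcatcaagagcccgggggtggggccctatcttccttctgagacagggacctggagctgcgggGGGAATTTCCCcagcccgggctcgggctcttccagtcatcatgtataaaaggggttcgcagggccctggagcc
Cxcl10 (chr5:92348890-92349109, minus strand): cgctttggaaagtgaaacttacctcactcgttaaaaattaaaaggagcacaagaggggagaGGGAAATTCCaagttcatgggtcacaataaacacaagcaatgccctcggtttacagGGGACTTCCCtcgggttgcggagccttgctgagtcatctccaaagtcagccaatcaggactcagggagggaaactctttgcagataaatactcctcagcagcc
Cxcl12 (chr6:117168315-117168534, plus strand): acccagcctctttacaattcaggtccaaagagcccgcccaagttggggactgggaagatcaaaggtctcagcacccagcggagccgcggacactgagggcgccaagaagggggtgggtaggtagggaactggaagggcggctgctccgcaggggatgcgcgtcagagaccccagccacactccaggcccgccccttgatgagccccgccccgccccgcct
The Cxcl1, Cxcl2 and Cxcl3 stretches held the same 11-base match, which reads as the consensus on both strands and begins 71, 97 and 73 bases before the start. The Cxcl10 stretch held 2 different matches, beginning 159 and 103 bases before the start, and the Cxcl12 stretch held none. In windows from 250 bases before to 50 bases after the start, searched on both strands, the consensus occurred in 1480 of 32851 windows (4.51%) and in those of 9 of the 38 members with a window in the table (Ackr2, Ccl20, Ccl9, Ccr3, Ccr6, Cxcl1, Cxcl10, Cxcl2 and Cxcl3). Cxcl14, Ccl19, Cx3cr1, Cxcr2 and Ackr3 held no match in their windows and were called lower in both expansions. Of the 9 members with a match, Ccl20 was not called, and Ccr3 and Ccr6 were not tested. A match describes the letters of the sequence only.

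Every examined chemokine family gene that changed with expansion was lower in the expanded cells, in teratoma-derived and satellite cells alike. In TE versus TF, 20 of the 42 members tested were lower and 0 were higher, where 16.2% and 9.86% of all genes tested were called lower and higher. In SE versus SF, 18 were lower and 0 were higher, where 19.8% and 20.9% of all genes were called. The median log2 fold change of the members was -3.97 in TE versus TF and -4.08 in SE versus SF, where that of all genes tested was -0.18 and -0.23. A call needed an adjusted p below 0.05 from edgeR's quasi-likelihood test and a fold change past the study's threshold. The count of 0 higher members held in each comparison under every alternative, DESeq2 included, and the number of members at an unadjusted p below 0.05 was 25 in each comparison, in either direction. A member detected mainly in fresh libraries passed the filter through them, so these shares are a description of the members. The p-values measure only the spread between the replicates of each group.

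The lists of members that fell in the 2 origins overlapped by 15 genes, which were 75.0% of the 20 and 83.3% of the 18. They were Cxcl1, Cxcl2, Cxcl3, Cxcl5, Cxcl10, Cxcl14, Cxcl16, Cxcl17, Ccl2, Ccl7, Ccl11, Ccl19, Cx3cr1, Cxcr2 and Ackr3. The overlap over all genes tested was not counted, so the 75.0% and 83.3% describe the members only. Those called in TE versus TF alone were Cxcl12, Ccl3, Ccl4, Ccl6 and Ccl9, and those called in SE versus SF alone were Cxcl13, Ccr4 and Ackr2. Of these 8, the difference between the effects of expansion passed its own test for Cxcl12 alone. These comparisons share no libraries, but both came from the same filter and fit, with a shared estimate of the spread. Their calls are therefore not independent of each other. Summed over the 33 ligands, the level was 13516 and 8003 in TF, 936 and 1220 in TE, 19847 and 28338 in SF, and 3193 and 1475 in SE. The receptors summed to 1937 and 1285, 181 and 169, 8923 and 6732, and 594 and 552 in the same order. Signaling receptors alone summed to 1322 and 504 in TF and 4530 and 1283 in SF, with replicate 1 far above replicate 2. Atypical receptors summed to 615 and 781 in TF and 4393 and 5449 in SF, where replicate 2 was the higher.

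**Figure D1:**
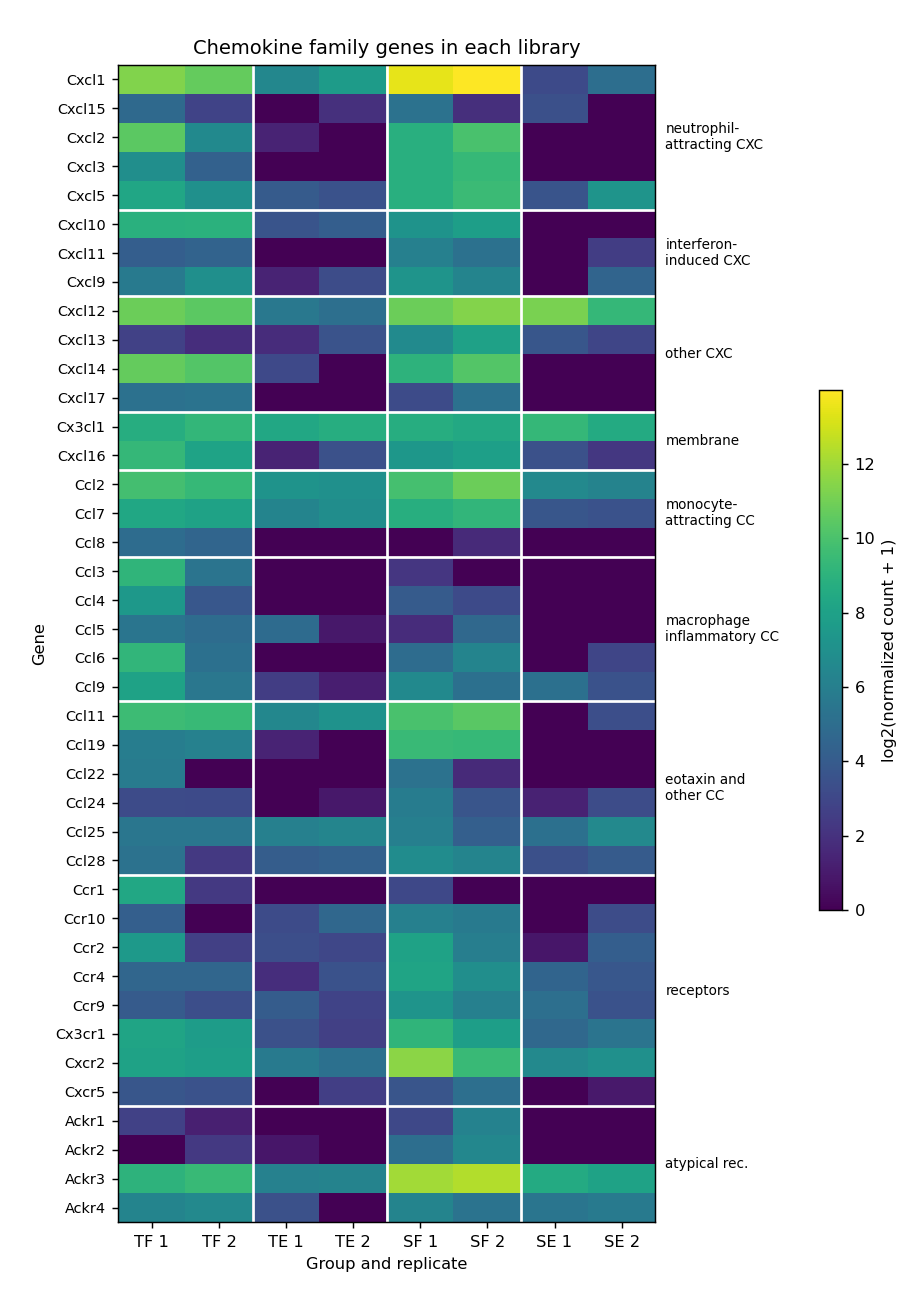
Heatmap of the chemokine family genes given by library (rows, grouped by role) in the 8 libraries (columns, by group and replicate), colored by log2(normalized count + 1). The fresh columns (TF and SF) are brighter than the expanded columns (TE and SE) for most rows, Cx3cl1 and Ccl25 being rows that stay at a like level, and Cxcl12 is dark in TE only.

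Immediate early genes, which are switched on by tissue dissociation and other stress, moved with this difference: the summed level of 8 of them was between 177936 and 205050 in the fresh libraries and between 8227 and 9123 in the expanded ones. Endothelial markers summed to 4965 and 1517 in TF and 5069 and 6462 in SF, against at most 106 in an expanded library. Markers of fibro-adipogenic cells, the connective tissue progenitors of muscle, summed to 313299 and 314386 in TF and 37069 and 65966 in SF, against 9787 to 15098 in the expanded libraries. Col3a1 made up most of each sum, at 282984 and 284048 in TF and 9689 to 14985 in the expanded libraries. Of the 7 markers, 7 were called lower in TE versus TF and 6 in SE versus SF, where 16.2% and 19.8% of all genes were. Means in TF, TE, SF and SE were 4493, 6.65, 1692 and 33.3 for Pdgfra, and 196, 9.07, 181 and 68.5 for Ly6a. The part of these markers in the fall of the chemokines was not tested.

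Cxcl1 leads the CXC ligands that attract neutrophils. It was at 2622 and 1652 normalized counts in TF, 87.4 and 206 in TE, 11499 and 16207 in SF, and 7.71 and 31.8 in SE. No groups overlapped, and the order was SF, TF, TE and SE. Cxcl1 was 14.6-fold lower in TE than in TF (log2 fold change -3.86 ± 0.53 SE, adjusted p = 0.000625, edgeR's quasi-likelihood test) and 701-fold lower in SE than in SF (-9.49 ± 0.69, adjusted p = 1.08e-05). These values lay between -4.58 without TE replicate 2 and -3.34 without TE replicate 1, and between -10.78 without SE replicate 2 and -8.74 without SE replicate 1. Per kilobase of its longest transcript, Cxcl1 had the highest level of any ligand in SF (14536 normalized counts per kilobase, where the next, Ccl2, had 1691) and in TF (2242, where Ccl2 had 957). It made up 40.0% and 46.2% of all the members' normalized counts in SF, and 0.204% and 1.57% in SE.

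Cxcl2 and Cxcl3, close relatives of Cxcl1, nearly vanished from expanded cells. Cxcl2 was at 1414 and 97.9 in TF, 1.65 and 0 in TE, 459 and 1013 in SF, and 0 and 0 in SE. Cxcl3 was at 118 and 19.6 in TF, 0 and 0 in TE, 449 and 651 in SF, and 0 and 0 in SE. In both genes every fresh library was above every expanded one, and TF replicate 1 was far above TF replicate 2. The SF means were at least 288-fold (Cxcl2) and 215-fold (Cxcl3) above the limit of 3 counts per library in SE (adjusted p = 0.00146 and 0.000544, edgeR's quasi-likelihood test). Both fell in TE versus TF (adjusted p = 0.00287 and 0.00411), and the TF mean of Cxcl3 was at least 27.5-fold above the limit.

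Cxcl5 was at 305 and 127 in TF, 15.1 and 10.7 in TE, 452 and 733 in SF, and 11.4 and 151 in SE. The SE replicates lay far apart, and SE replicate 2 was above TF replicate 2. Cxcl5 fell 16.7-fold in TE versus TF (log2 fold change -4.05 ± 1.01, adjusted p = 0.0161, edgeR's quasi-likelihood test) and 7.30-fold in SE versus SF (-2.88 ± 0.92, adjusted p = 0.0311). The SE versus SF value lay between -5.65 without SE replicate 2 and -1.96 without SE replicate 1. That call was lost without SF replicate 1 or 2 (adjusted p = 0.0507 and 0.0876) and when the fit held SE and SF alone (0.0631), and the TE versus TF call without TE replicate 2 (0.0517). Cxcl15 reached at most 37.3 in a library and passed no test. Cxcl1, Cxcl2, Cxcl3, Cxcl5 and Cxcl15 lie together on chromosome 5, from 90759360 to 90905938 on GRCm38 (GENCODE M21), and the counts of Cxcl2, Cxcl3, Cxcl5 and Cxcl15 were not all whole numbers, so reads that they share with relatives may have been split.

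Interferon-induced ligands attract T cells, and Cxcl10 fell in both origins. It was at 465 and 496 in TF, 11.5 and 17.0 in TE, 146 and 231 in SF, and 0 and 0 in SE. It fell 33.7-fold in TE versus TF (log2 fold change -5.06 ± 0.53, adjusted p = 0.000226, edgeR's quasi-likelihood test), and the SF mean was at least 73.7-fold above the limit in SE (adjusted p = 4.09e-05). Cxcl9 was at 51.2 and 122 in TF, 1.67 and 8.57 in TE, 151 and 78.2 in SF, and 0 and 21.5 in SE, and Cxcl11, annotated as a polymorphic pseudogene, was at 17.4 and 20.9, 0 and 0, 68.3 and 36.2, and 0 and 4.76. For these 2 genes every fresh library was also above every expanded library of its origin, but neither passed the test in either expansion (adjusted p between 0.0583 and 0.0997).

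Cxcl12, which holds stem and progenitor cells in their niches, changed differently with expansion in the 2 origins. It was at 1843 and 1390 in TF, 47.0 and 33.1 in TE, 1841 and 2656 in SF, and 2312 and 645 in SE. Only the TE libraries stood apart, and the other 3 groups overlapped in range. Cxcl12 fell 40.3-fold in TE versus TF (log2 fold change -5.33 ± 0.59, adjusted p = 0.000194, edgeR's quasi-likelihood test), and in SE versus SF its log2 fold change was -0.60 ± 0.47 (adjusted p = 0.323). The difference between these effects was -4.73 ± 0.73 (adjusted p = 0.00309), and lay between -5.38 without SE replicate 2 and -3.52 without SE replicate 1. Per kilobase, Cxcl12 had the highest level of any ligand in SE (263 normalized counts per kilobase, where Cx3cl1 had 154).

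Cxcl14, a ligand of epithelia and connective tissue, was at 1653 and 1193 in TF, 7.42 and 0 in TE, 518 and 1191 in SF, and 0 and 0 in SE. It fell 383-fold in TE versus TF (log2 fold change -8.52 ± 0.83, adjusted p = 0.000157, edgeR's quasi-likelihood test), a value that rests on 9 counts in TE replicate 1 and 0 in TE replicate 2 and lay between -13.42 and -7.53 without TE replicate 1 and without TE replicate 2. Its SF mean was at least 334-fold above the limit in SE (adjusted p = 8.51e-05). Cxcl13, which attracts B cells, was high in SF only, at 102 and 260, and reached at most 12.3 in any other library. It was 19.2-fold lower in SE (adjusted p = 0.0125) and 44.6-fold lower in TF (adjusted p = 0.0104) than in SF, and both calls were lost without SF replicate 2 (adjusted p = 0.176 and 0.128), as was the first without SE replicate 2 (0.0568). Cxcl17, a ligand of mucosal surfaces, was at 35.8 and 39.1 in TF and 8.32 and 36.3 in SF and at 0 in the 4 expanded libraries. Its 2 calls (adjusted p = 0.0450 in TE versus TF and 0.0418 in SE versus SF, edgeR's quasi-likelihood test) were lost without SF replicate 2 or any single library of the 2 groups of teratoma-derived cells (adjusted p between 0.0822 and 0.193), and without SF replicate 2 or any single TF or SE library (between 0.0917 and 0.162), respectively.

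The 2 ligands made as membrane proteins differed from each other. Cxcl16, which also binds oxidized lipoprotein, was at 646 and 272 in TF, 1.65 and 10.2 in TE, 169 and 239 in SF, and 10.02 and 3.74 in SE. It fell 77.6-fold in TE versus TF (log2 fold change -6.26 ± 0.86, adjusted p = 0.000667, edgeR's quasi-likelihood test) and 29.7-fold in SE versus SF (-4.84 ± 0.81, adjusted p = 0.00127). Leaving out TE replicate 2 or 1 gave -7.99 and -5.44 for the former, and leaving out SE replicate 1 or 2 gave -5.70 and -4.32 for the latter. Cx3cl1, fractalkine, which can hold passing leukocytes, was at 414 and 616 in TF, 332 and 418 in TE, 423 and 352 in SF, and 642 and 380 in SE. All 4 groups of Cx3cl1 overlapped in range. Its log2 fold change was -0.46 ± 0.33 in TE versus TF (adjusted p = 0.328) and 0.40 ± 0.33 in SE versus SF (adjusted p = 0.346), and no change was called.

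**Figure D2:**
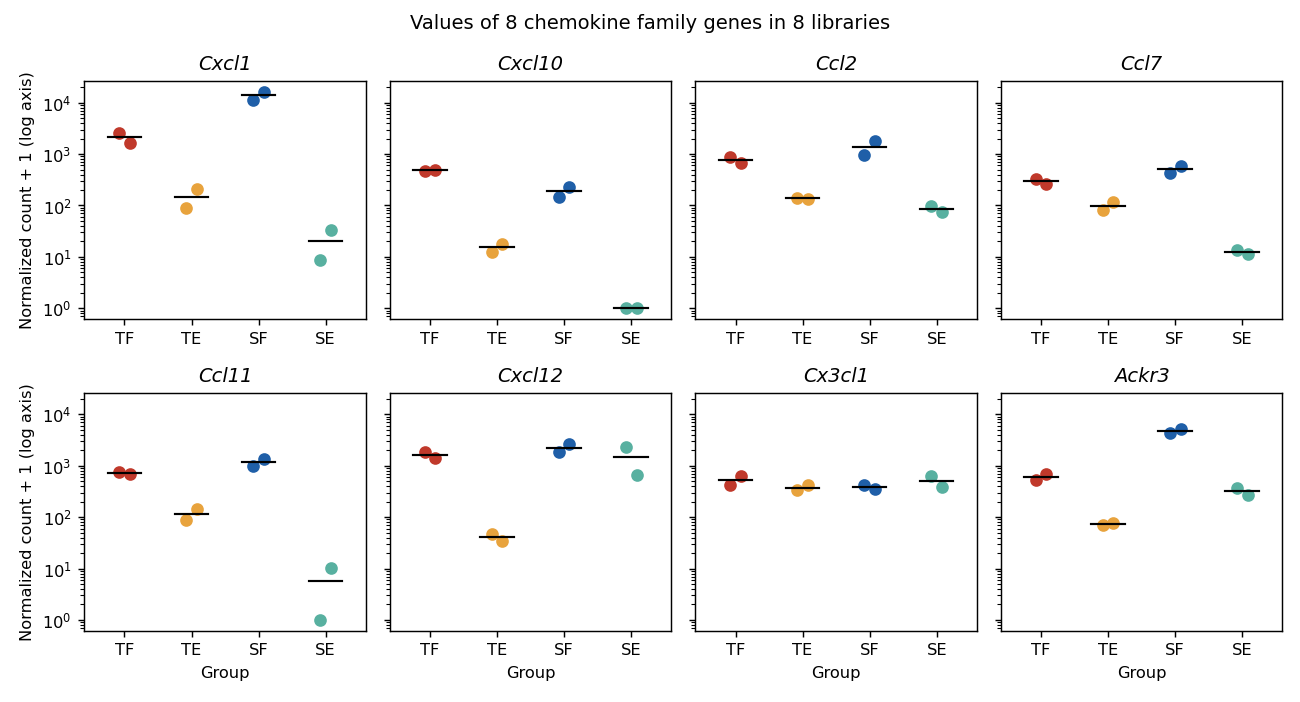
Normalized counts (plus 1, log axis) of 8 chemokine family genes in TF, TE, SF and SE, with 1 point per library (2 per group) and a bar at the group mean. Cxcl1, Cxcl10, Ccl2, Ccl7, Ccl11 and Ackr3 are lower in TE than TF and in SE than SF, Cxcl12 is low in TE only, and Cx3cl1 stays between 332 and 642 throughout.

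Ccl2 and Ccl7, CC ligands that attract monocytes, were lower in expanded cells but still present in every library. Ccl2 was at 887 and 669 in TF, 142 and 130 in TE, 940.2 and 1809.6 in SF, and 94.8 and 74.8 in SE. It fell 5.73-fold in TE versus TF (log2 fold change -2.52 ± 0.34, adjusted p = 0.000618, edgeR's quasi-likelihood test) and 16.2-fold in SE versus SF (-4.01 ± 0.36, adjusted p = 3.58e-05). Per kilobase, Ccl2 had the highest level of any ligand in TE (167 normalized counts per kilobase, where Cxcl1 had 154).

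Ccl7 was at 325 and 266 in TF, 79.2 and 115 in TE, 431 and 586 in SF, and 12.3 and 10.3 in SE. The fall was 3.05-fold in TE versus TF (log2 fold change -1.61 ± 0.37, adjusted p = 0.0115, edgeR's quasi-likelihood test) and 45.0-fold in SE versus SF (-5.47 ± 0.45, adjusted p = 2.23e-05). The smaller of these was lost without TF replicate 1 or TE replicate 1 (adjusted p = 0.0628 and 0.125). Ccl8, of the same class, was at 30.3 and 22.2 in TF and at 2.20 or 0 in the other libraries, and passed no test.

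Ccl11, eotaxin-1, which attracts eosinophils, followed the same course as its neighbor Ccl7. It was at 767 and 695 in TF, 87.4 and 140 in TE, 993 and 1346 in SF, and 0 and 9.35 in SE. It fell 6.43-fold in TE versus TF (log2 fold change -2.68 ± 0.55, adjusted p = 0.00613, edgeR's quasi-likelihood test) and 250-fold in SE versus SF (-8.03 ± 0.77, adjusted p = 4.67e-05), the latter lying between -13.17 without SE replicate 2 and -6.93 without SE replicate 1. Ccl2, Ccl7 and Ccl11 lie in this order on chromosome 11, from 82035571 to 82062955.

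Ccl19, which guides dendritic and T cells through the receptor of lymph node homing, was mainly in SF. It was at 59.1 and 69.2 in TF, 1.65 and 0 in TE, 707 and 652 in SF, and 0 and 0 in SE. The SF mean was at least 265-fold above the limit in SE (adjusted p = 2.91e-05, edgeR's quasi-likelihood test), and Ccl19 also fell in TE versus TF (adjusted p = 0.000578). Ccl25, a ligand of thymus and gut, was at 44.0 and 44.4 in TF, 66.8 and 81.5 in TE, 64.2 and 17.6 in SF, and 35.5 and 96.3 in SE, with log2 fold changes of 0.75 ± 0.89 and 0.69 ± 0.89 in the 2 expansions (adjusted p = 0.569 and 0.551). Ccl24 and Ccl28 were highest in SF replicate 1, at 58.2 and 113, and Ccl22 was at 55.0 and 0 in TF and 38.0 and 2.20 in SF. None of these 4 genes passed a test.

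The macrophage inflammatory ligands Ccl3, Ccl4, Ccl6 and Ccl9, which monocytes and macrophages make in quantity, were highest in TF replicate 1. Ccl3 was at 567 and 40.4 in TF, 3.57 and 0 in SF, and 0 in the 4 expanded libraries. Ccl6 was at 582 and 35.2 in TF, 0 and 0 in TE, 29.7 and 79.3 in SF, and 0 and 6.55 in SE. Ccl4 was at 172 and 13.05 in TF, 15.5 and 7.71 in SF and 0 in expanded cells, and Ccl9 was at 270 and 46.5 in TF, 4.81 and 1.23 in TE, 99.0 and 34.6 in SF, and 34.5 and 10.5 in SE. All 4 were called lower in TE versus TF (adjusted p = 0.00916, 0.00908, 0.0251 and 0.0131 for Ccl3, Ccl6, Ccl4 and Ccl9, edgeR's quasi-likelihood test), and all 4 calls were lost without TF replicate 1 (adjusted p = 0.284, 0.0662, 0.376 and 0.108 in that order). Ccl4 was also lost without TE replicate 1 or 2 (0.0804 and 0.0798), Ccl9 without TE replicate 2 (0.0580) and Ccl3 with DESeq2 (0.0634). Ccl5, of the same class, was at 42.6 and 30.0 in TF, 28.9 and 0.849 in TE, 2.38 and 25.3 in SF, and 0 and 0 in SE, and passed no test.

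**Figure D3:**
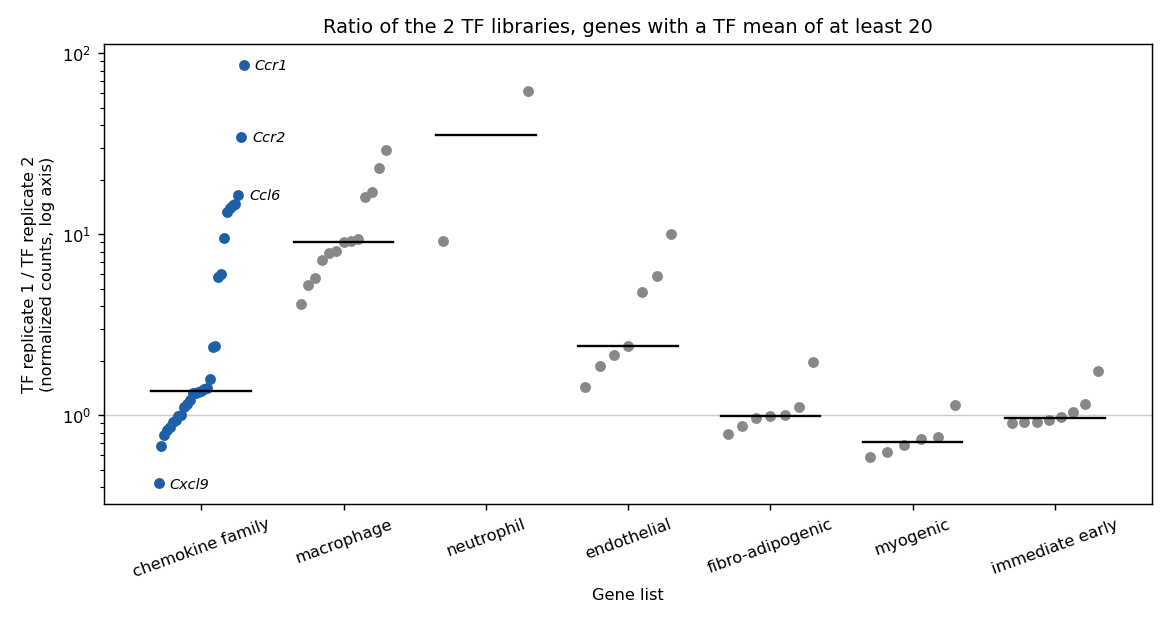
Ratio of normalized counts in TF replicate 1 to TF replicate 2 (log axis), by gene list, with a bar at the median. Each point is a gene with a TF mean of at least 20 and a count in both TF libraries. The 31 chemokine family genes have a median of 1.36 but reach 86.1 (Ccr1), the 13 macrophage markers have a median of 9.09, the 2 neutrophil markers 35.3 and the 7 endothelial markers 2.41, and the fibro-adipogenic, myogenic and immediate early lists lie near or below 1.

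Over all members with a TF mean of at least 20 and a count in both TF libraries, the median ratio of TF replicate 1 to replicate 2 was 1.36 (31 genes), and 10 genes had a ratio above 5. Genes this far apart included Cxcl2, Cxcl3, Ccl3, Ccl4, Ccl6, Ccl9, Ccl28, Ccr1 and Ccr2, and Ccl22 was at 0 in TF replicate 2. Macrophage markers moved in the same direction, with a median ratio of 9.09 and 12 of 13 genes above 5. The neutrophil markers with a TF mean of at least 20 had a median ratio of 35.3 (2 genes, both above 5). Ptprc, which encodes the CD45 used to gate out blood cells, was at 818 and 104 in TF, 60.6 and 25.3 in SF and 0 in expanded cells. Endothelial markers had a median ratio of 2.41, with 2 of 7 above 5, fibro-adipogenic markers 0.989 and myogenic markers 0.713. Pecam1, which encodes the CD31 also used for gating, was at 900 and 90.0 in TF and 763 and 1185 in SF. In expanded cells Pecam1 was at 6.60 and 5.09 in TE and 36.2 and 17.8 in SE. Without TF replicate 1, 14 members in place of 20 were lower in TE versus TF, all 14 among the 20, and Ccl3, Ccl4, Ccl6, Ccl7, Ccl9 and Cxcl17 were no longer called.

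Among the signaling receptors examined, Cxcr2, which binds Cxcl1, Cxcl2, Cxcl3 and Cxcl5, had the highest level per kilobase in SF (616 normalized counts per kilobase, where Cx3cr1 had 89.2) and in TF (81.1, where Ccr1 had 60.2). Its normalized counts were 265 and 229 in TF, 53.2 and 34.3 in TE, 3035 and 719 in SF, and 94.3 and 126 in SE. No groups overlapped, though the SF replicates were far apart. Cxcr2 fell 5.64-fold in TE versus TF (log2 fold change -2.49 ± 0.59, adjusted p = 0.0129, edgeR's quasi-likelihood test) and 17.0-fold in SE versus SF (-4.09 ± 0.60, adjusted p = 0.000606), the latter lying between -4.76 without SF replicate 2 and -2.71 without SF replicate 1. Cx3cr1, the receptor of fractalkine, was at 283 and 211 in TF, 10.1 and 5.24 in TE, 575 and 227 in SF, and 25.7 and 41.0 in SE. It fell 32.3-fold (-5.02 ± 0.66, adjusted p = 0.000516) and 12.03-fold (-3.59 ± 0.60, adjusted p = 0.00118, and -2.77 without SF replicate 1) in the 2 expansions, whereas its ligand Cx3cl1 was not called.

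Of the signaling receptors for CC ligands, Ccr4 alone passed a test. Ccr4, which binds Ccl17 and Ccl22, was at 23.1 and 23.1 in TF, 2.51 and 10.3 in TE, 289 and 119 in SF, and 21.6 and 12.8 in SE. It was 11.9-fold lower in SE than in SF (adjusted p = 0.0132, edgeR's quasi-likelihood test), a call lost without SF replicate 1 or SE replicate 2 (adjusted p = 0.132 and 0.0591). Ccr2, the receptor of Ccl2 and Ccl7 on monocytes, was at 180 and 5.22 in TF, 9.14 and 6.79 in TE, 263 and 62.1 in SF, and 0.771 and 16.9 in SE. Ccr2 passed no test. Ccr1, a receptor of Ccl3 and Ccl5, was at 337 and 3.91 in TF, 7.13 and 0 in SF and 0 in expanded cells, and was removed by the filter on low counts. Ccr9, Ccr10 and Cxcr5 reached at most 149, 67.8 and 33.02 in a library, each in SF, and passed no test.

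Ackr3, an atypical receptor that binds and removes Cxcl12, was called in all 4 comparisons between groups, and no alternative ended a call. It was at 532 and 682 in TF, 70.1 and 74.7 in TE, 4277 and 5248 in SF, and 374 and 263 in SE. No groups overlapped, and the order was SF, TF, SE and TE. Ackr3 fell 8.39-fold in TE versus TF (log2 fold change -3.07 ± 0.26, adjusted p = 3.65e-05, edgeR's quasi-likelihood test) and 15.0-fold in SE versus SF (-3.90 ± 0.25, adjusted p = 6.14e-06). The difference between these effects was 0.83 ± 0.33 (adjusted p = 0.133). Ackr2, which removes inflammatory CC ligands, was at 32.1 and 89.2 in SF and at 3.91 or less elsewhere, and was called lower in SE versus SF (adjusted p = 0.0273), a call lost without SE replicate 1, SE replicate 2 or SF replicate 2 (adjusted p = 0.106, 0.0943 and 0.170). Ackr4, which removes Ccl19 and Ccl25, was at 77.0 and 93.3 in TF, 9.90 and 0 in TE, 77.0 and 39.6 in SF, and 41.8 and 53.3 in SE (adjusted p = 0.0523 in TE versus TF). Ackr1, the chemokine receptor of red cells and venules, reached 71.5 in SF replicate 2, was 0 in expanded cells and was not tested.

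The other 12 members had a mean under 20 in every group and passed no test: Ccl1, Ccl12, Ccl17, Ccl20, Ccl26, Ccr3, Ccr6, Ccr7, Ccr8, Cxcr1, Cxcr3 and Cxcr6. Of these, 3 (Ccl26, Cxcr1 and Cxcr3) had at most 3 counts in each of the 8 libraries. The filter on low counts had removed 9 of the 12, all but Ccl20, Ccr7 and Cxcr6, together with Ccr1 and Ackr1. At this depth, a level below the limit was not detectable.

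The size of the fall itself differed between the origins for 5 members. This difference, the log2 fold change in TE versus TF minus that in SE versus SF, was called higher for 4 of the 42 tested (Cxcl1, Cxcl10, Ccl7 and Ccl11) and lower for 1 (Cxcl12), where 4.70% and 9.62% of all genes were called higher and lower. The median was 0.37 over the members and -0.18 over all genes. For Cxcl1 it was 5.63 ± 0.77 (adjusted p = 0.00172, edgeR's quasi-likelihood test), for Ccl11 5.35 ± 0.90 (adjusted p = 0.00472) and for Ccl7 3.86 ± 0.56 (adjusted p = 0.00227). Cxcl10 passed as well (adjusted p = 0.0182), though with SE at 0 its fitted value depends on the prior count. These 4 genes fell less in teratoma-derived cells, and each was also higher in TE than in SE.

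**Figure D4:**
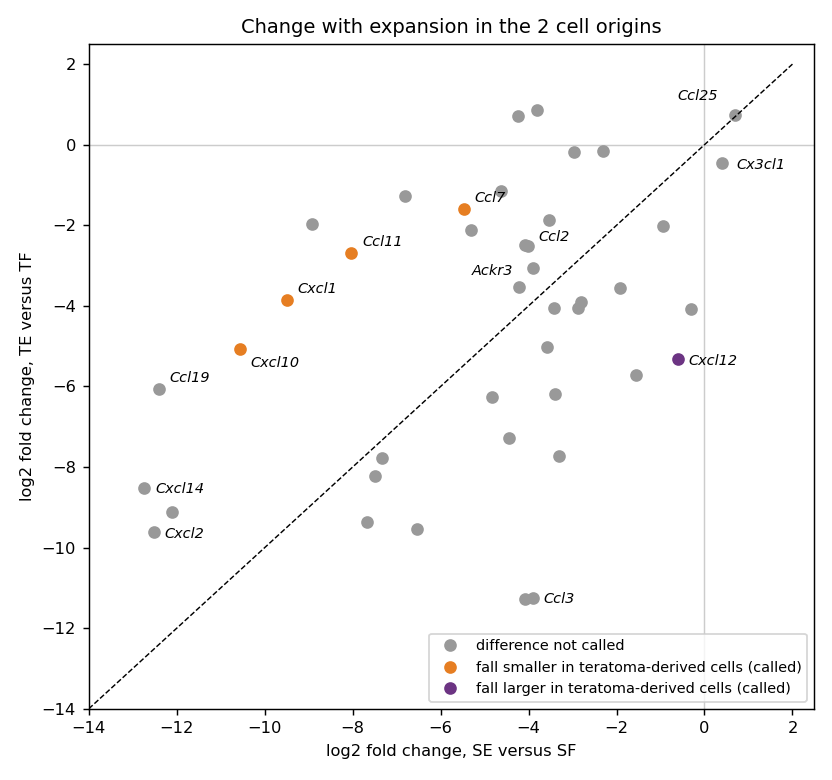
Log2 fold change of the 42 tested chemokine family genes in SE versus SF (horizontal) and TE versus TF (vertical), with a dashed line of equal change. The 4 orange genes (Cxcl1, Cxcl10, Ccl7 and Ccl11) lie above the line and Cxcl12 (purple) below it by a called difference, and values of genes with a group at 0, such as Ccl3 and Cxcl2, depend on the small count added in the fit.

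In expanded cells alone, TE versus SE, 4 members were higher and 2 lower, where 3.15% and 4.07% of all genes were called. The median over the members was 0 on the log2 scale and that of all genes 0.00. Cxcl1 was 7.43-fold higher in TE (log2 fold change 2.93 ± 0.59, adjusted p = 0.0171, edgeR's quasi-likelihood test), Ccl7 8.57-fold (3.08 ± 0.42, adjusted p = 0.00262) and Ccl11 24.3-fold (4.67 ± 0.74, adjusted p = 0.00522). The Ccl11 value lay between 3.59 without SE replicate 1 and 9.82 without SE replicate 2. Cxcl10 was at least 5.57-fold higher in TE than the limit in SE (adjusted p = 0.00522). With only TE and SE in the fit, the calls of Cxcl1, Cxcl10 and Ccl11 were lost (adjusted p = 0.0922, 0.107 and 0.0850). Cxcl12 was 36.9-fold lower in TE than in SE (-5.20 ± 0.59, adjusted p = 0.000972), or -3.995 without SE replicate 1, and Ackr3 was 4.40-fold lower (-2.14 ± 0.25, adjusted p = 0.00118). Macrophage markers summed to 52.3 and 74.6 in TE and 86.1 and 183 in SE.

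In fresh cells, TF versus SF, 1 member was higher and 7 were lower, where 15.1% and 9.13% of all genes were called. The median was -0.64 over the members and 0.08 over all genes. Lower in TF were Cxcl1 (6.48-fold, adjusted p = 0.00425, edgeR's quasi-likelihood test), Ackr3 (7.84-fold, adjusted p = 0.000132), Cxcr2 (7.60-fold, adjusted p = 0.00610, with a log2 fold change of -2.92 that was -1.56 without SF replicate 1 and -3.60 without SF replicate 2), Ccl19 (10.6-fold, adjusted p = 0.00259), Cxcl3 (7.98-fold, adjusted p = 0.0327), Ccr4 (8.82-fold, adjusted p = 0.0346) and Cxcl13, given above. The log2 fold change of Cxcl3 was -4.80 without TF replicate 1 and -2.23 without TF replicate 2. Cxcl3 was lost without SF replicate 1 or 2 (adjusted p = 0.0722 and 0.119), and Ccr4 without SF replicate 1, TF replicate 1 or TF replicate 2 (0.249, 0.103 and 0.115). The higher member was Ccl3 (adjusted p = 0.0205), which was lost without TF replicate 1 (0.557), without SF replicate 1 or 2 (0.0533 and 0.0546) and with DESeq2 (0.242). Ccl2, Cxcl12, Cxcl14 and Cx3cl1 had log2 fold changes of -0.82 ± 0.32, -0.48 ± 0.48, 0.73 ± 0.54 and 0.41 ± 0.33 between TF and SF, and none was called. TF and SF each also enter a comparison with expanded cells, so these values share libraries with those above.

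Genes around the chemokines were counted in a list of 66 (64 tested) of NF-kappaB components, cytokines that induce chemokines, signaling partners of the receptors, and proteins that process or hold chemokines. Of the 64, 35 were lower and 2 higher in TE versus TF, where 16.2% and 9.86% of all genes were called lower and higher. In SE versus SF 32 were lower and 8 higher, where 19.8% and 20.9% of all genes were called. The higher genes of TE versus TF were Mif, a cytokine that also binds chemokine receptors (785 and 427 in TF, 1811 and 1796 in TE, log2 fold change 1.57 ± 0.26, adjusted p = 0.00215, edgeR's quasi-likelihood test), and Chuk, a kinase that activates NF-kappaB (443 and 528 in TF, 761 and 758 in TE, 0.65 ± 0.21, adjusted p = 0.0484). Mif was also higher in SE (358 and 364 in SF, 2930.1 and 3257 in SE, 3.10 ± 0.28, adjusted p = 3.48e-05), as were Ikbkg, a subunit of the same kinase complex (1.92 ± 0.25, adjusted p = 0.000304), and Adam10, which sheds Cx3cl1 and Cxcl16 from the membrane (1.29 ± 0.22, adjusted p = 0.00155).

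Several inducing cytokines were nearly lost from expanded cells. Il6, which muscle and immune cells make in injury, was at 836 and 586 in TF, 1.65 and 30.6 in TE, 2093 and 2890.5 in SF, and 0 and 2.81 in SE (adjusted p = 5.01e-05 in SE versus SF, edgeR's quasi-likelihood test). Il1b, which drives inflammation, and its antagonist Il1rn were at 1934 and 140 and at 1254 and 70.5 in TF and at 0 in TE (adjusted p = 0.00234 and 0.00525), with TF replicate 1 again far above replicate 2. Il33, an alarm signal of stromal cells, was at 319 and 539 in TF, 0 and 0 in TE, 995 and 1121 in SF, and 27.8 and 22.4 in SE (adjusted p = 1.33e-05 in TE versus TF and 0.00158 in TE versus SE). Dock2, a motility factor of blood cells, and Dpp4, a protease that trims Cxcl12, were at 118 and 68.2 and at 53.2 and 111 in SF and at 0 in SE (adjusted p = 0.0117 and 0.00817).

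The change of NF-kappaB components with expansion differed by origin. Of 15 tested, 7 were lower and 1 higher in TE versus TF, where 16.2% and 9.86% of all genes were called lower and higher. In SE versus SF 12 were lower and 1 higher, where those shares were 19.8% and 20.9%. How far the effects of the 2 expansions differed was tested too, and the difference was called higher for 8 and lower for 1, where 4.70% and 9.62% of all genes were called. Nfkb1, which encodes a DNA-binding subunit, was at 2450 and 2163 in TF, 2732 and 2978 in TE, 12880.5 and 15699 in SF, and 2028 and 1522 in SE, and the difference between its effects was 3.32 ± 0.30 (adjusted p = 0.000232, edgeR's quasi-likelihood test). Nfkb2, its relative, was at 915 and 1087 in TF, 1142 and 1204 in TE, 3539.9 and 4991 in SF, and 760 and 799 in SE, with a difference of 2.68 ± 0.30 (adjusted p = 0.000660). SF stood above the other 3 groups in both genes, and Nfkb1 was also lower in TF than in SF (-2.63 ± 0.22, adjusted p = 0.000138).

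In TF versus SF, 9 of the 64 were higher and 13 lower, where 15.1% and 9.13% of all genes were called. Of 23 signaling partners 4 were higher and 1 lower, and of 11 processing genes 3 were higher and 1 lower. Rgs4, which shortens G protein signaling, was at 190 and 168 in TF, 0 and 0 in TE, 2046 and 2653 in SF, and 306 and 334 in SE. It was lower in TF than in SF (-3.71 ± 0.25, adjusted p = 0.000102, edgeR's quasi-likelihood test), and the SE mean was at least 127-fold above the limit in TE (adjusted p = 2.50e-05). Sdc4, a proteoglycan that holds chemokines at the cell surface, was at 4128 and 4867 in TF and 29261 and 33013 in SF (-2.79 ± 0.27, adjusted p = 0.000215). Rgs3, of the same kind as Rgs4, was higher in TF (1.88 ± 0.31, adjusted p = 0.00280), as were Il1b and Il1rn (adjusted p = 0.00826 and 0.0262). The TF means of Il1b and Il1rn rest mainly on TF replicate 1, at 1934 and 1254, where TF replicate 2 was at 140 and 70.5. Whether these calls hold without that library was not examined. In TE versus SE, 7 of the 64 were called, all lower in TE, where 4.07% of all genes were called lower and 3.15% higher, with Tnfrsf1b, a receptor of tumor necrosis factor, among the lower at 54.3 and 39.2 in TE and 317 and 358 in SE (-2.85 ± 0.55, adjusted p = 0.0135).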

How the data were processed

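The authors deposited estimated counts per gene symbol for all 8 libraries, not normalized, from stranded total RNA libraries. The submitters' processing notes name CASAVA, kallisto 0.44.0, GRCm38 and mm10, and the annotation is not given in the sources used here. The counts of 16 of the 53 members were not whole in at least 1 library (tolerance 0.005), and the reason was not tested. All 8 columns were matched to samples by the labels, and replicate numbers come from the labels.

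Counts were rounded, filtered with edgeR's filterByExpr, scaled by TMM and tested in 1 fit of the 4 groups with edgeR's quasi-likelihood test (R 4.3.3, edgeR 4.0.16, limma 3.58.1), with Benjamini-Hochberg adjustment over 17582 genes. Calls needed an adjusted p below 0.05 and a fold past the study's threshold. The fit was tested on simulated data in which only well-counted genes were changed, in TE alone. That setting does not cover groups at 0, low counts or replicates as unequal as those of TF, so it cannot vouch for such calls. Fold changes are given with their standard errors. The limit of 3 counts per library covers counting error only, and a group at 0 is given as a bound against it, with no fold where a group held 1 to 3 counts in all. Library totals set this precision.

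Members called in a comparison or with a group mean of at least 20 normalized counts are given by library, and of the pathway list the 3 called genes with the largest change in each direction of a comparison. The members, gene lists and rules were chosen with earlier results of these data known. Levels per kilobase used the longest GENCODE M21 transcript and were ranked among the members only. Promoters were taken from RefSeq on GRCm38.p6. Alternatives were median-ratio size factors, no filter, DESeq2 1.42.0, only the compared groups, a replicate block, glmTreat and each library left out. They were read for the members only, so calls of the pathway list and of cell markers were not checked under them. Some chemokine receptor results are not reported here.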

Additional observations from a re-analysis of the deposited data

Results flagged for a closer look

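The effect of expansion differed between teratoma-derived and satellite cells, by a test of the difference itself in edgeR's quasi-likelihood fit, for 5 of the 42 members tested. The difference in log2 fold change (TE versus TF minus SE versus SF) was 5.63 for Cxcl1 (adjusted p = 0.00172), 5.35 for Ccl11 (0.00472), 3.86 for Ccl7 (0.00227), 5.499 for Cxcl10 (0.0182, with SE at 0, so that the value depends on the fit's prior count) and -4.73 for Cxcl12 (0.00309). None of the 5 calls was lost under an alternative. Groups of 2 libraries were not examined for single outlying values.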

How the results depend on the processing

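Of 57 member calls over the 5 comparisons, 38 were kept under every alternative, 19 were lost under at least 1 and 0 reversed: 16 when a library was left out, 4 with only the compared groups in the fit, 3 under the replicate block 2 with DESeq2 and 1 (Cxcl17 in TE versus TF, adjusted p = 0.0510, edgeR) under glmTreat, some under several. Leaving out each library in turn gave 14 (without TF replicate 1) to 26 (without SE replicate 1) lower members in TE versus TF, 16 to 22 in SE versus SF, 0 to 3 higher and 5 to 9 lower in TF versus SF, 4 to 4 higher and 2 to 4 lower in TE versus SE, and 4 to 6 higher and 1 to 2 lower for the difference between effects. The count of 0 higher members in each expansion stayed at 0 to 0. DESeq2 called 29 members lower in SE versus SF, 0 higher in TF versus SF, 4 lower in TE versus SE, and 7 higher and 2 lower for the difference between effects. Without a filter, 4 were higher in TF versus SF, 6 lower in TE versus SE, and 9 higher and 3 lower for the difference. With only the compared groups, 2 were higher in TF versus SF and 1 higher in TE versus SE. These counts stand without the share of all genes called under the same setting, and the set of genes tested changes with some settings. They therefore cannot be read against the counts of the main fit as stronger or weaker results about the members. The causes of these shifts were not tested.

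The replicate block gave 20 lower members in TE versus TF, 17 in SE versus SF, 1 higher and 6 lower in TF versus SF, 4 higher and 2 lower in TE versus SE, and 4 and 1 for the difference. It ended the calls of Cxcl17 (adjusted p = 0.0797 in TE versus TF and 0.0829 in SE versus SF, edgeR's quasi-likelihood test) and of Ccr4 in TF versus SF (0.0524). Deviations of same-numbered libraries correlated between -0.02 and 0.07. With 2 libraries per group, this cannot decide whether same-numbered libraries were paired in origin or handling. Median-ratio scaling moved the median of all genes by -0.19 in SE versus SF, -0.16 in TF versus SF and 0.14 for the difference, and gave 5 in place of 4 higher members for the difference, with the other counts as before. With 2 libraries per group and a limit of 3 counts, small changes of low genes cannot be resolved.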
